A study of Fragaria x ananassa with 3 samples.

Results

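The miR3627-like small RNAs of stored strawberry fruit are 4 mature sequences, described here with the only gene listed in the degradome as cleaved under the guidance of any of them, a glycosyl hydrolase 9B1. The 4 are the name of the miR3627 family, vvi-miR3627-5p_L-1_1ss16CT, called miR3627 in the text that follows, and the 3 new candidates that differ from it at no more than 2 bases over at least 20 nt. They were chosen among 1310 names, which fill 1431 entries of the deposited table because a name with several precursors is repeated, and the target gene is 1 of 103 genes in 152 degradome entries. Their reads in the libraries were known when they were singled out, so the folds given here are descriptions of these libraries.

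Fruit of the cultivated strawberry (Fragaria x ananassa, cultivar Zhangji) was picked at commercial ripeness and held in trays under plastic at 20 °C and about 85% relative humidity. Small RNAs were sequenced from fruit after 24 h of this storage and from fruit at 0 h, with 1 library for each time, and 1 degradome library was made from a mixture of both. The libraries have no replicates, so no difference was tested across samples, and every interval is an exact counting interval at the 95% level that leaves out the variation between fruits and between libraries. Reads copied by PCR carry no molecular tag, so they are not independent molecules. Listed names sum to 2998588 raw reads in the 24 h library, against 3006293 in the 0 h library. Fruit is a bulk tissue, in which fewer cells of a type and less RNA per cell cannot be told apart, and the tables hold no mRNA levels with which the labelled tissue could be checked.

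A plant miRNA is cut from a folded transcript, the hairpin, as a short duplex of a guide strand and a partner strand, and the guide directs an Argonaute protein to mRNAs that pair with it. The protein slices the mRNA opposite the middle of the guide, and a degradome library collects the 5′ ends that slicing leaves. miR3627 was named in grapevine and is placed beside miR4376, which in tomato targets an mRNA for a Ca2+-ATPase, and plant miRNAs of 22 nt are known as triggers of secondary small RNAs from the mRNAs they cut. Glycosyl hydrolase 9B1 of Arabidopsis belongs to the plant endo-glucanases, enzymes that act on glucan chains of the cell wall, and wall enzymes of this kind are studied in fruit for their part in softening.

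The mature sequences are shown because the members are defined by them. Capitals mark the seed, bases 2 to 8 counted from the 5′ end, and T stands for U as in the deposited table.
vvi-miR3627-5p_L-1_1ss16CT: tGTCGCAGgagagatggcact
PC-5p-1004_3092: tGTCGCAGtagagatggcacg
PC-5p-481_6402: tATGTCGCaggagagatggtac
PC-5p-28382_127: tCTGTCGTaggagagatggcgc
vvi-miR3627-5p of grapevine, to which the first name refers: tTGTCGCAggagagacggcact

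The 4 sequences fall into 3 seeds. vvi-miR3627-5p_L-1_1ss16CT and PC-5p-1004_3092, both of 21 nt, start at the same base and share the seed GTCGCAG, which no other of the 1310 names carries. PC-5p-481_6402 and PC-5p-28382_127, both of 22 nt, start 2 bases further to the 5′ side, and each has a seed that occurs in no other name. All 4 begin with T, as do 396 of the 1310 names (30.2%). Names of 22 nt were fewer in the table, 67 (5.11%), than names of 21 nt, 234 (17.9%).

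Against miR3627, with positions counted from its 5′ end, PC-5p-481_6402 carries a single substitution, C18T, over 20 nt. PC-5p-1004_3092 carries G9T and T21G over 21 nt, the first of them just past the seed and the second in the last base. PC-5p-28382_127 carries C6T and A19G over 20 nt, so the first lies within the seed of miR3627. The candidates differ among themselves at 2 to 4 bases, least between PC-5p-481_6402 and PC-5p-1004_3092 and most between PC-5p-481_6402 and PC-5p-28382_127. The 4 share the 8-base stretch AGAGATGG, which 8 names of the table hold, and the 3 other than PC-5p-1004_3092 share the 11-base stretch AGGAGAGATGG, which those 3 names alone hold.

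Set against the grapevine sequence of 22 nt, miR3627 of the fruit lacks its first base and has C16T. The same substitution C16T stands in all 4 strawberry sequences. PC-5p-481_6402 has T1A and C19T beside it, PC-5p-1004_3092 has G10T and T22G, and PC-5p-28382_127 has T1C, C7T and A20G. Here positions are counted from the 5′ end of the grapevine sequence.

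The sequence rule has a wide margin in this table. The candidates in it differ from miR3627 at 1 or 2 bases, and the nearest names outside the rule, mdm-miR156ac_L+1_1ss17AG and sbi-miR156e_L+1_1ss6AG, differ at 6. Next came 6 names with 7 mismatches each, namely PC-5p-441518_9, PC-5p-280652_13, mdm-miR156a_L+1R+1, mdm-miR156a_L+1, mdm-miR156ac_L+1 and mdm-miR156b, and no name had 3, 4 or 5. All 8 neighbours had fewer normalized reads at 24 h than at 0 h, with folds between 0.0909 and 0.883. Most of them carry the miR156 name, and PC-5p-280652_13 differs from sbi-miR156e_L+1_1ss6AG only in its last base. These names are therefore not separate families. The median log2 fold over all tested names was 0. The lowest fold, of PC-5p-280652_13, rests on 2 raw reads at 24 h against 12 at 0 h. The counting interval lay wholly below 1 for 5 of the 8. The share of all tested names with such an interval was not computed, so nothing is read from this count. For sbi-miR156e_L+1_1ss6AG and mdm-miR156a_L+1R+1 the interval ended at 0.9997 and 0.993, and intervals were not recomputed under other scalings. mdm-miR390a, of a family that is compared with miR3627 for its sequence and that acts in the trans-acting siRNA pathway of plants, matched the members at 12 or 13 bases of the 20 or 21 aligned. It differed from miR3627 at 8 bases over 21 nt, more than any of the 8 neighbours. This name had 168 raw reads at 24 h, against 246 at 0 h (fold 0.631, counting interval at the 95% level 0.515 to 0.770).

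The precursors of 3 of the 4 names were at hand, with positions on the Fragaria vesca genome version 1.0, the woodland strawberry. They are shown because the 4 loci lie close together and because a partner strand can be read from them. Each line gives the plus or minus strand and the listed window, which is longer than the hairpin printed. Capitals mark the place of the mature sequence and, in the last hairpin, also that of a partner on the 3′ arm.
PC-5p-28382_127, scf0512983:246314-246575, minus strand: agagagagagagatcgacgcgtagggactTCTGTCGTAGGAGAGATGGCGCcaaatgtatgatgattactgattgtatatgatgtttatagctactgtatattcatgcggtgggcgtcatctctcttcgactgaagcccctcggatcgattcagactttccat
vvi-miR3627-5p_L-1_1ss16CT, scf0512983:254859-255119, plus strand: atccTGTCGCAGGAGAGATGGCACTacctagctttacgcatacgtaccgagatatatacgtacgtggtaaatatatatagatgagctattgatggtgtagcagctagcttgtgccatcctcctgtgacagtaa
vvi-miR3627-5p_L-1_1ss16CT, scf0512983:258558-258818, plus strand: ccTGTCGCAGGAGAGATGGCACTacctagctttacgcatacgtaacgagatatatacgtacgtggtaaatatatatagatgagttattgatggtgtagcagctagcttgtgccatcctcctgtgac
PC-5p-1004_3092, scf0512983:263464-263724, plus strand: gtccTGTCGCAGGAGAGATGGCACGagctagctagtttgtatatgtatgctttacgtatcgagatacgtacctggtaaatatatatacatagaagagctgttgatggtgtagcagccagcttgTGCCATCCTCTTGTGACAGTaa

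The 4 windows span 17411 bases of scaffold scf0512983. The 3 on the plus strand lie within 8866 bases, with starts 3699 and 4906 bases apart, and the window of PC-5p-28382_127 on the minus strand starts 8545 bases before the first of them. What genes or introns the loci lie in was not analysed here. The precursors of PC-5p-481_6402, of which the deposited table lists 2, were not among the positions used here. Its sequence differed from the closest stretch of any of the 4 hairpins at 3 bases or more over its 22 nt.

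**Figure D1:**
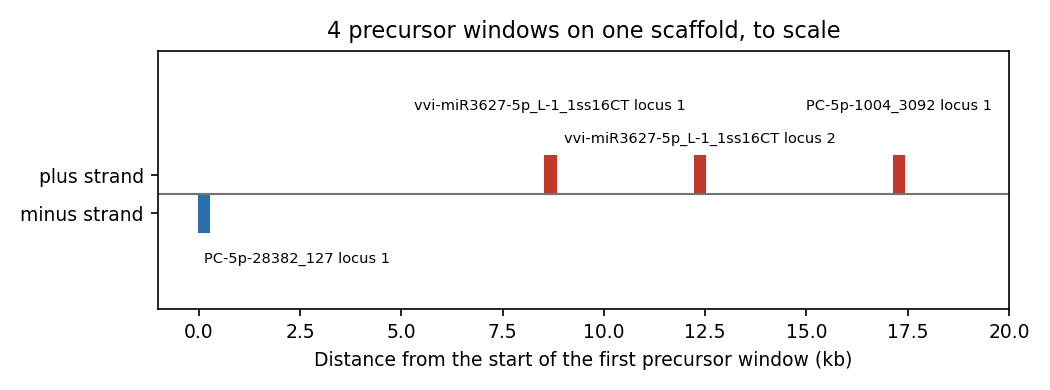
Precursor windows of the miR3627-like names on scaffold scf0512983, drawn to scale, with the distance from the start of the first window in kb on the horizontal axis and the plus strand (red) above the minus strand (blue). The 3 plus strand windows stand within 8866 bases, and the window of PC-5p-28382_127 is apart from them on the other strand.

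The hairpins of the plus strand resemble each other beyond the mature sequence. The pair that carries miR3627 was identical at 124 of 133 aligned positions, with 2 mismatches and 7 gap positions, and 3 unread bases at the 3′ end of the second were left out. The hairpin of PC-5p-1004_3092 was identical to the first of them at 118 of 149 positions (79.2%) and to the second at 111 of 149 (74.5%). Identity of the minus strand hairpin to the plus strand ones was 47.2 to 51.5%.

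All 4 hairpins folded with the mature sequence on the 5′ arm and its partners on the 3′ arm. The computed folding energy was -70.9 kcal/mol for the hairpin of PC-5p-28382_127, -58.8 and -54.8 kcal/mol for those of miR3627, and -67.7 kcal/mol for that of PC-5p-1004_3092. In these foldings 20 of 22, 19 of 21, 18 of 21 and 20 of 21 bases of the mature sequence were paired, in the order printed above. The listed mature sequence stands without change in the first 3 hairpins. In the fourth the genome and the read differ by G9T, counted from the 5′ end of the mature sequence, and miR3627 likewise matches this hairpin with 1 mismatch. The exact product of this hairpin is not among the 1310 names.

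No second name is listed on the precursor entries of any of the 4 members. A search of all names against the hairpins placed a candidate on the 3′ arm of the PC-5p-1004_3092 hairpin, PC-3p-236712_15, listed under a precursor entry of its own. It was singled out after its values were seen.
PC-3p-236712_15: TGCCATCCTCTTGTGACAGT
Its 20 nt match positions 124 to 143 of that hairpin with no mismatch, and they are the very bases that the computed folding gives as the partner strand of a duplex whose 3′ ends each overhang by 2 bases. On the first hairpin of miR3627 it matches with 1 mismatch, and the position of its own precursor was not used here. It had 56 raw reads at 24 h, against 4 at 0 h (fold 11.8 on normalized reads, 95% counting interval 4.78 to 49.1). For each of its reads there were 41.0 reads of PC-5p-1004_3092 at 24 h (31.5 to 54.4) and 56.2 at 0 h (21.7 to 208), ratios whose intervals overlap. No further name outside the members lay within 2 mismatches of the 4 hairpins. The second hairpin of miR3627 holds only 17 bases of its computed partner strand, so a name of 20 nt could not be placed there.

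All 4 members had more reads at 24 h than at 0 h, by amounts that differed widely. PC-5p-481_6402, a 22 nt candidate, had 2389 raw reads at 24 h (95% counting interval 2294 to 2487), against 257 at 0 h (227 to 290). On the normalized scale of the authors it had 2021 reads at 24 h and 235 at 0 h, a fold of 8.60 (7.54 to 9.80). PC-5p-1004_3092, of 21 nt and the name listed with the glycosyl hydrolase, had 2296 raw reads at 24 h (2203 to 2392), against 225 at 0 h (197 to 256). Its normalized reads were 1943 at 24 h and 206 at 0 h, a fold of 9.43 (8.21 to 10.9). The intervals of the libraries lie far apart for both candidates.

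miR3627 itself was much rarer than these candidates. It had 119 raw reads at 24 h (98.6 to 142) and 23 at 0 h (14.6 to 34.5). Its normalized reads were 101 at 24 h and 21 at 0 h, a fold of 4.81 (3.04 to 7.82), and the count intervals do not overlap. PC-5p-28382_127, the member from the minus strand locus, had 38 raw reads at 24 h (26.9 to 52.2) and 21 at 0 h (13.0 to 32.1), and these count intervals overlap. Its normalized reads were 32 at 24 h and 19 at 0 h, a fold of 1.68 (0.956 to 2.996). A difference in this member was not detectable at this depth.

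**Figure D2:**
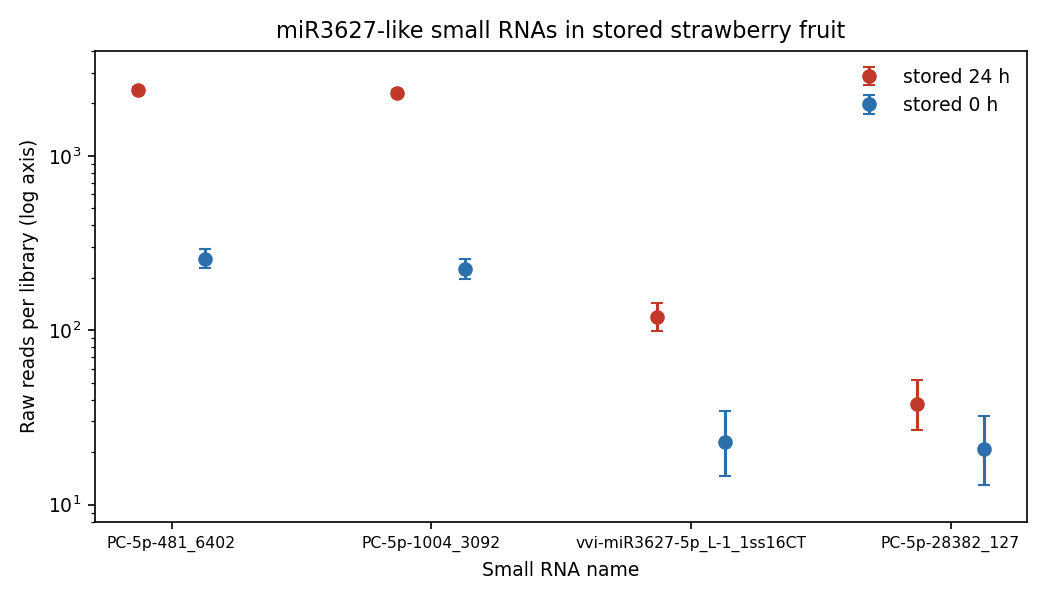
Raw reads of the 4 miR3627-like names in the library stored 24 h (red) and the library stored 0 h (blue), on a log axis, with exact Poisson intervals at the 95% level as bars (narrower than the point where not visible). PC-5p-481_6402 and PC-5p-1004_3092 stand at 2389 and 2296 reads at 24 h, against 257 and 225 at 0 h, while the intervals of PC-5p-28382_127 overlap.

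Past the threshold of a log2 fold of 1 were 3 of the 4 members, and none was below -1. Of the 1248 names that reached 10 raw reads in a library, 6.25% were above 1 and 3.69% below -1. The share above 1 was 4.72% of the 212 names that reached 100 raw reads in a library, and 16.4% of the 293 names of 21 or 22 nt with at least 10. The median log2 fold was 2.69 over the members, beside 0 over all names tested. Over all names 78 were above 1 and 46 below -1, a split that became 109 and 35 with raw reads scaled to the listed total. Since the members were chosen with their folds in view, nothing is read from these counts.

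The 3 members with enough reads stood at the top of the fold order of abundant names. Among the 212 names that reached 100 raw reads in a library, PC-5p-1004_3092, PC-5p-481_6402 and miR3627 held places 1, 2 and 3. They were the 3 with a fold above 4. miR3627 passed this filter only through the 24 h library, with 119 raw reads against 23 at 0 h, so its place depends on the filter. PC-5p-1004_3092 and PC-5p-481_6402 passed it in both libraries, with 225 and 257 raw reads at 0 h. These 2 candidates cannot be ordered by fold, since their intervals overlap. Among all 1248 names tested the members held places 5, 6, 9 and 132, the last for PC-5p-28382_127. Names of few reads stood between places 6 and 9. Between places 9 and 132 stood abundant names as well, such as PC-5p-410_7468 and mdm-miR395a. Of the 40 names that reached 1000 raw reads in a library, 5 were past 2-fold higher at 24 h, among them both abundant members. PC-5p-481_6402 and PC-5p-1004_3092 reached 1000 only in the 24 h library, with 2389 and 2296 raw reads. Their place in this count therefore depends on the filter, and nothing is read from it.

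**Figure D3:**
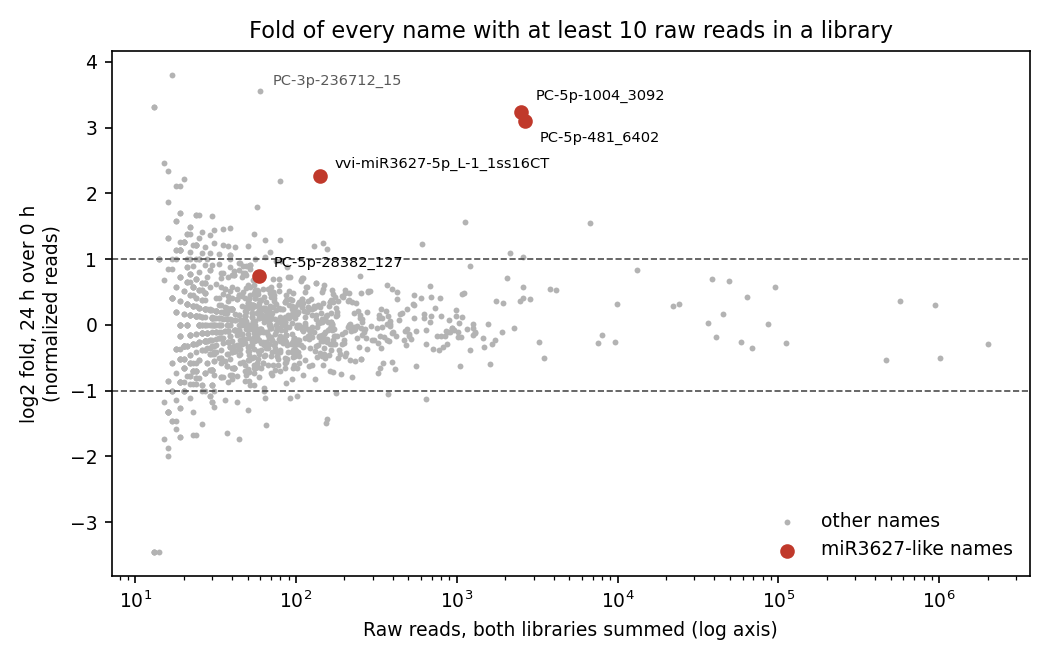
The log2 fold of normalized reads, 24 h over 0 h, against the raw reads of both libraries summed (log axis) for the 1248 names that reached 10 raw reads in a library. Red points are the 4 miR3627-like names, grey points the others, and dashed lines mark a log2 fold of 1 and -1. PC-5p-1004_3092 and PC-5p-481_6402 lie alone at the right of the upper part, at a log2 fold of 3.24 and 3.10.

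Outside the rule, the 6 largest folds among names that reached 100 raw reads were those of mdm-miR395a, PC-5p-410_7468, csi-miR827, PC-3p-8342_429, PC-3p-45119_80 and PC-5p-931_3343, between 2.15 and 2.97. They lie above the fold of PC-5p-28382_127, whose interval overlaps those of all 6, and below the folds of the other 3 members. The intervals of mdm-miR395a, PC-5p-410_7468, csi-miR827 and PC-3p-45119_80 overlap that of miR3627. mdm-miR395a, of a family known for its part in sulfate assimilation, had 859 raw reads at 24 h, against 268 at 0 h (fold 2.97, 2.58 to 3.41). PC-5p-410_7468, the most abundant of the 6, had 5149 raw reads at 24 h, against 1626 at 0 h (fold 2.92, 2.76 to 3.09). csi-miR827, of a family known from phosphate homeostasis, had 106 raw reads at 24 h, against 41 at 0 h (fold 2.37, 1.65 to 3.51). All 6 are of 21 nt, and they differ from miR3627 at 11 to 15 bases. Like miR3627, csi-miR827 and PC-3p-45119_80 reached 100 raw reads only in the 24 h library. PC-3p-45119_80 had 111 there, against 46 at 0 h.

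The place of the members among all names by raw reads was nearer the top at 24 h for each of them. PC-5p-481_6402 was name 26 of 1310 at 24 h and name 94 at 0 h, and PC-5p-1004_3092 was name 28 at 24 h and name 108 at 0 h. miR3627 was at place 172 at 24 h and 649 at 0 h, and PC-5p-28382_127 at place 466 at 24 h and 699 at 0 h. Among the 67 names of 22 nt, PC-5p-481_6402 was name 5 at 24 h, with 2.77% of the reads of that length (2.66 to 2.88%), and name 17 at 0 h, with 0.354% (0.312 to 0.4003%). In the larger class of 21 nt, PC-5p-1004_3092 held 0.0954% of the reads at 24 h (0.0915 to 0.0994%) and 0.00980% at 0 h (0.00856 to 0.0112%).

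Summed, the 4 names had 4842 raw reads at 24 h, against 526 at 0 h. They held 0.161% of the listed reads at 24 h (95% Clopper-Pearson interval 0.157 to 0.166%), against 0.0175% at 0 h (0.0160 to 0.0191%). The fold of the summed normalized reads was 8.52 (7.77 to 9.32).

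The sum rests almost entirely on the 2 abundant candidates. PC-5p-481_6402 and PC-5p-1004_3092 together made up 96.8% of the reads of the 4 names at 24 h (96.2 to 97.2%) and 91.6% at 0 h (88.9 to 93.9%). The share of PC-5p-481_6402 was 49.3% at 24 h (47.9 to 50.8%) and 48.9% at 0 h (44.5 to 53.2%), intervals that overlap. PC-5p-1004_3092 held 47.4% at 24 h (46.0 to 48.8%) and 42.8% at 0 h (38.5 to 47.1%). miR3627, the only member that carries a known family number, held 2.46% at 24 h (2.04 to 2.93%) and 4.37% at 0 h (2.79 to 6.49%). PC-5p-28382_127 held 0.785% at 24 h (0.556 to 1.08%) and 3.99% at 0 h (2.49 to 6.04%), and for this name the intervals do not overlap.

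**Figure D4:**
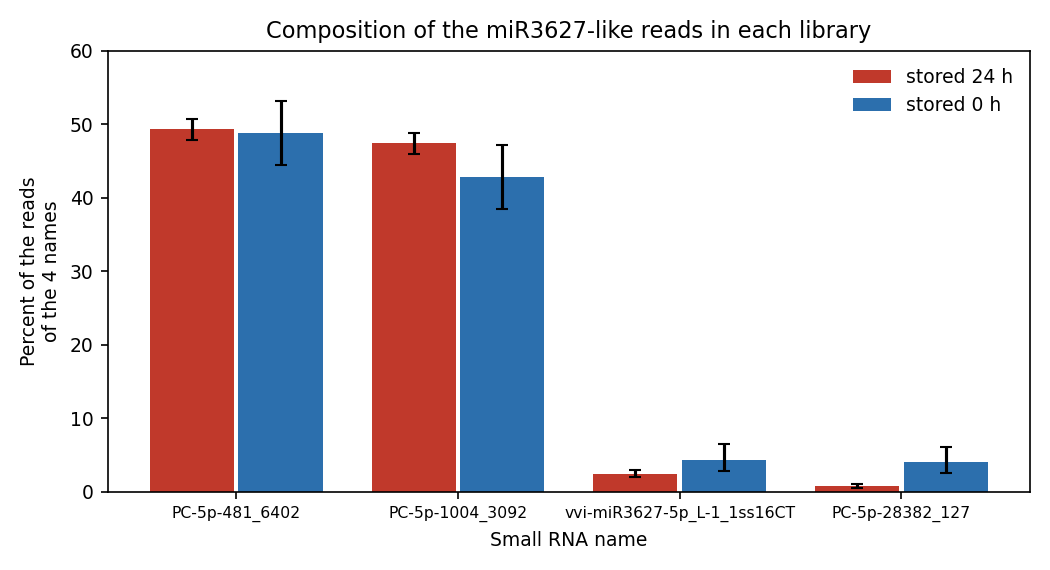
Share of each name in the reads of the 4 miR3627-like names, in percent, in the library stored 24 h (red) and the library stored 0 h (blue), with Clopper-Pearson intervals at the 95% level. PC-5p-481_6402 and PC-5p-1004_3092 make up 96.8% at 24 h and 91.6% at 0 h.

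The order of the levels was the same in both libraries, but not every neighbour in it can be told apart. The ratio of PC-5p-481_6402 to PC-5p-1004_3092 was 1.04 at 24 h (0.982 to 1.10) and 1.14 at 0 h (0.951 to 1.37), so that neither interval leaves out equal levels. PC-5p-1004_3092 had 19.3 times the reads of miR3627 at 24 h (16.04 to 23.4) and 9.78 times at 0 h (6.36 to 15.8). miR3627 had 3.13 times the reads of PC-5p-28382_127 at 24 h (2.16 to 4.64). At 0 h that ratio was 1.10 (0.580 to 2.08), and the pair was not separable.

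In the degradome, 1 of the 4 members had an entry, PC-5p-1004_3092, and 75 of all 1310 names (5.73%) had at least 1. Its single target was gene06191-v1.0-hybrid, annotated as glycosyl hydrolase 9B1, and no other name is listed with that gene. The miRNA aligned to positions 695 to 715 of the transcript, all 21 nt of it, and the cleavage site was at position 706. This position faces base 10 of the miRNA from its 5′ end, as in 139 of the 151 entries whose alignment range could be read (92.1%). Since most entries share this place, it does not set the entry apart from the others. The deposited tables used here hold no transcript sequence, so the paired bases are not shown.

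The site of glycosyl hydrolase 9B1 had 11 degradome reads. There are 111 distinct sites, and 11 of them had more reads, 1 other had the same number, and the median was 1 read. Among the 56 entries of new candidates it was the highest, the next having 7 reads. It was placed in category 2, which means that the reads at the site exceeded the median of the transcript but that another position of the transcript had more. Of the 37 entries in category 2 it had the most reads, the next having 7.

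The pairing behind the site was at the edge of the listed range. The alignment score was 4, where a mismatch counts 1 and a G:U pair less, with double weight in the core of the miRNA, so that a lower score is a closer match. No entry has a higher score than 4, and 59 of the 152 have this score (38.8%), 34 of the 56 entries of new candidates and 25 of the 96 entries of known miRNAs. The p-value of the entry, which comes from a binomial model and for which no adjustment is stated, was 0.0698. It was the lowest in category 2 and was shared with 2 other entries there. In category 0, in which the site holds the highest reads of its transcript, the p-values of the 48 entries were 0.00125 to 0.0307.

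**Figure D5:**
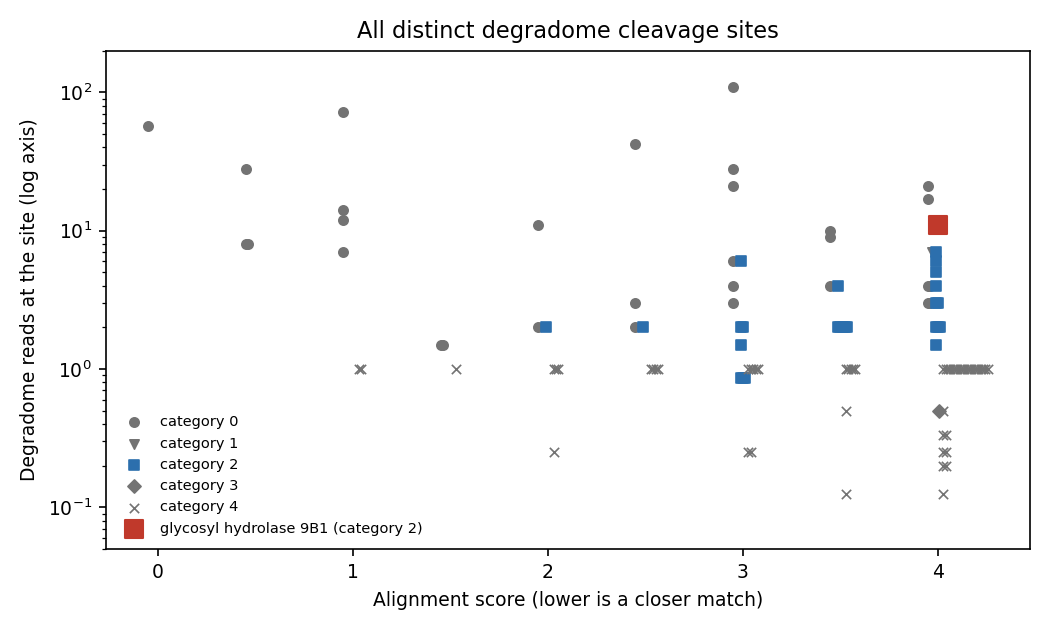
Degradome reads at each of the 111 distinct cleavage sites (log axis) against the alignment score of the pairing, with 1 entry drawn for each site, symbols for the category and small sideways shifts so that points do not hide each other. The glycosyl hydrolase 9B1 site (red square) has 11 reads at a score of 4, above the other sites of category 2 (blue squares).

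Few other targets carried the name of a cell wall enzyme, and the share of such enzymes among all genes was not at hand. From a list of enzyme names that covers galactosidases, glucosidases, glucanases, xyloglucan enzymes, pectin enzymes and expansins, 3 entries were found, of which glycosyl hydrolase 9B1 was the only one with more than 1 read. Beta-galactosidase 3 (gene12626-v1.0-hybrid) was listed with hbr-MIR2118-p3_1ss1GT, at score 3 and in category 4, with 1 read. That miRNA had 20 raw reads at 24 h, against 16 at 0 h (fold 1.13, 0.568 to 2.38). A pectin lyase-like protein (gene00558-v1.0-hybrid) was listed with PC-3p-87823_40, at score 4 and in category 4, with 1 read. That candidate had 8 raw reads at 24 h, against 9 at 0 h and stayed below the minimum for a fold.

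No member was listed with a Ca2+-ATPase or other P-type ATPase. The only entry with such an annotation was gene07488-v1.0-hybrid, an ATPase of the E1-E2 type, with PC-5p-205640_18, which is not among the members, at score 2.5 and in category 4 with 1 read. PC-5p-205640_18 had 14 raw reads at 24 h, against 20 at 0 h (fold 0.667, 0.302 to 1.35).

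Among the 72 names with a degradome entry and enough reads for a fold, PC-5p-1004_3092 was second by fold, after PC-3p-238320_15 with 12 raw reads at 24 h, against 1 at 0 h (counting interval of the fold 1.64 to 474), whose fold was 5.50 with a pseudocount of 1, below that of PC-5p-1004_3092. Of these 72 names 7 were past 2-fold higher at 24 h and 2 past 2-fold lower. Over all 1248 names tested, 78 (6.25%) were higher and 46 (3.69%) lower, and nothing is read from the counts among the 72. The degradome library mixes fruit of both times, so it holds no comparison of the glycosyl hydrolase 9B1 site between 24 h and 0 h, and the mRNA level of the gene was not analysed here.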

How the data were processed

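Raw counts of each mature small RNA are the authors' output of ACGT101-miR 4.2, from reads placed on known miRNAs and the woodland strawberry genome. The normalized scores, as deposited, are the authors' scaled reads as whole numbers. Their median ratio to raw reads, over names of 1000 raw reads or more, was 0.846 at 24 h and 0.917 at 0 h, and single values can lie below the product by part of a read. The formula was not given in the sources used here. For each degradome entry the authors computed an alignment score, a category and a p-value, using CleaveLand 3.0 with ACGT301-DGE 1.0. The deposited signal at a site is the number of degradome reads, with some fractional values.

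The members, the lists and the rule for named genes were chosen with earlier results of these data known. Each name was counted once. Folds are 24 h over 0 h on normalized reads, for names that reached 10 raw reads in a library, with 0 replaced by 3 raw reads. Exact intervals (95%) were taken from the Poisson distribution for counts, by the Clopper-Pearson method for shares, and by conditioning on the summed reads for folds. Listed depth was about the same in both libraries, and its precision is given by these intervals. Sequences were compared without gaps over at least 20 nt, and hairpins by global alignment (biopython 1.88) and RNAfold 2.7.2. Hairpins and positions come from the study's supplementary listings, sequences only. Named beside the members are names on their precursors, the 5 nearest in sequence with the 3 further names tied with the fifth, mdm-miR390a, the 6 largest other folds with at least 100 raw reads, and the cell wall enzyme and P-type ATPase targets. Those 3, PC-3p-236712_15 and PC-3p-238320_15 were named after their values were seen. The interval and calling steps were tested on simulated Poisson counts, which hold no variation between fruits or between libraries. Alternatives were 5 other scalings (with TMM factors of edgeR 4.0.16 and size factors of DESeq2 1.42.0), a pseudocount of 1, other filters, other denominators and stricter degradome thresholds. Python 3.11.15, scipy 1.17.1 and R 4.3.3 were used. A gene table of cultivated strawberry was not used, since it holds 0 matches to the target's identifier.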

Additional observations from a re-analysis of the deposited data

How the results depend on the processing

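The folds of the 4 members, of their sum and of 19 other names were recomputed under 6 alternatives each (raw reads, raw reads per listed or per mappable total, TMM factors, size factors, a pseudocount of 1). No fold changed direction, and 134 of the 144 values stayed within the counting interval. The other 10 are of PC-5p-410_7468, mdm-miR156a_L+1 and mdm-miR156b. The fold of PC-5p-280652_13, with few reads, was 0.0909 and lay at 0.154 to 0.167 under the alternatives. The fold of PC-5p-1004_3092 ran from 9.39 to 10.2, of PC-5p-481_6402 from 8.57 to 9.32, of miR3627 from 4.64 to 5.19, of PC-5p-28382_127 from 1.65 to 1.81 and of PC-3p-236712_15 from 9.60 to 14.0. Leaving reads unscaled, or scaling by the listed total, moved the scale of the log2 folds by 0.12. Members past 2-fold stayed 3, or 5 with each table entry counted, since 2 of them are listed on 2 precursors. Over all names, 78 were higher and 46 lower at 24 h. Per listed total these counts were 109 and 35, and on raw reads 96 and 35. With at least 10 raw reads in both libraries they were 26 and 19, with at least 50 in a library 14 and 7, and with the counting interval wholly past 2-fold 9 and 0. The share of the members in the listed reads was 0.161% at 24 h and 0.0175% at 0 h. With every table entry counted it was 0.148% at 24 h and 0.0155% at 0 h, and as a share of mappable reads 0.0239% at 24 h and 0.00280% at 0 h. The degradome entry was lost with a p-value under 0.05 and in category 0 alone, which each left 0, and was kept in categories 0 to 2. The sequence rule gave 4 names under either wider setting. No paired analysis was possible because each storage time has 1 library. The lack of replicates limits every comparison, and at its depth the interval of PC-5p-28382_127 holds both no difference and a 2-fold one.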

Other observations

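Of the 1334 new candidate entries of the deposited table, 715 had a hairpin at hand. In 353 of these (49.4%) the listed mature sequence stands unchanged in the listed hairpin, as for PC-5p-28382_127, and in 362 it differs at 1 base or more, as for PC-5p-1004_3092. The scaffold that holds the 4 miR3627-like windows carries 8 further entries at hand. The share of PC-3p-236712_15 in its reads and those of PC-5p-1004_3092 summed was 2.38% at 24 h (95% Clopper-Pearson interval 1.80 to 3.08%) and 1.75% at 0 h (0.478 to 4.41%), and the intervals overlap. The alignment range of 1 degradome entry, of a candidate outside the members, has been turned into a date in the deposited file, which leaves 151 of 152 readable.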
